A study of Mus musculus with 80 samples.

Results

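The TALE (3-amino-acid loop extension) cofactors of the Meis, Pbx and Pknox families were followed through mouse muscle stem cells (MuSCs) of the extraocular muscles (EOM) and of the tibialis anterior (TA), before and after grafting. The 8 genes Meis1, Meis2, Meis3, Pbx2, Pbx3, Pbx4, Pknox1 and Pknox2 were taken from the table of 25899 genes by their symbols. MuSCs were sorted from 10 Tg:Pax7-nGFP mice, in which a Pax7 transgene drives nuclear GFP, on a C57BL/6;DBA2 F1/JRj background; the labels give the donors as males of 7 or 7.6 weeks. From each donor, EOM and TA cells were sequenced directly as pools of 500 cells (pre-graft), and further cells of each muscle were injected into the injured TA muscles of immunodeficient Rag2-/-;γC-/- recipients (C57BL/6J background) and recovered by GFP at a labelled 21 days (graft, a median of 35 cells per EOM pool and 26 per TA pool in the libraries used). Both kinds of graft therefore came from a TA environment, and GFP from the Pax7 transgene marked the cells at both sorts. The paper's text states the time of recovery differently, and its quality control lists other cell numbers for some grafts, so both are given here as labelled. RNA was measured in 40 libraries, of which 30 passed the study's quality control and were used: 8 EOM and 8 TA pre-graft libraries, and 7 EOM and 7 TA graft libraries. The donors belonged to 2 experiments, with 4 mice in Experiment 1 and 6 in Experiment 2, and after grafting Experiment 1 contributed 1 library to each muscle.

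Hox proteins bind short and similar DNA sites, and TALE homeodomain proteins sharpen their choice by binding next to them. Pbx proteins contact Hox proteins directly, while Meis and Pknox (also called Prep) proteins pair with Pbx, hold it in the nucleus and can join complexes on DNA. Meis and Pbx also act without Hox, and Pbx with Meis or Pknox marks regulatory regions that the myogenic factor MyoD binds in muscle cells.

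The 30 libraries held between 963432 and 4169357 reads on genes, as recovered from the deposited values, and detected between 9758 and 13970 genes. Their deposited total read counts were 3326270 to 14402975, mostly in genes. The recovered reads are thus fewer than the reads counted there, and the reason was not tested. Values are log2 RPM, corrected for library size by the authors but not for gene length. Summed over genes they came to 1078241 to 1532877 RPM per library, so the divisor was neither the recovered reads on genes nor the total reads. A gene without a read stands at the value of 0.9 of a read, between -1.67 and 0.48 on the log2 scale. All 8 MuSC marker genes checked, Pax7 and Myf5 among them, had reads in every pre-graft library, and their summed level lay between 11988 and 22397 RPM in TA and between 13277 and 17547 RPM in EOM. In the grafts the same sum lay between 197 and 9398 RPM in TA and between 1216 and 14112 RPM in EOM, and all 8 markers fell in both muscles on the authors' scale, Vcam1 in EOM by less than the median gene (-1.03 against -1.48 on the log2 scale). The summed level of 6 endothelial markers was between 17.6 and 1143 RPM in TA and between 102 and 498 RPM in EOM before grafting, and between 541 and 2750 RPM in TA grafts and between 189 and 1948 RPM in EOM grafts. The TA pre-graft library of mouse 3 of Experiment 2 stood apart by its 10948 detected genes, the lowest number among the pre-graft libraries, although 2834724 recovered reads fell on genes. The EOM pre-graft library of that same mouse met the thresholds stated for quality control but was left out by the study as an outlier in its group. It held 79 Meis1 reads (5.11 log2 RPM), more than any EOM pre-graft library used, and 5 Pknox2 reads (1.13 log2 RPM), fewer than any of these, so results that change when it is kept are given both ways. Of the 39 Hox genes in the table, at most 2 had a read in any EOM pre-graft library, with a summed level of 0 to 4.78 RPM, against 9 to 19 genes and 146 to 247 RPM in TA.

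Before grafting, transcripts of the cofactors were present in both muscles, including the EOM cells that had almost no Hox transcripts. Between 6 and 8 members had at least 1 read in each EOM library and between 2 and 8 in each TA library. Their summed level was 186 to 325 RPM in EOM (median 214) and 148 to 262 RPM in TA (median 216), so the ranges overlapped. Pknox2 and Meis3 had the higher mean levels in EOM and Meis1 in TA, while Pknox1 led in both. Of these differences only that of Pknox2 passed in the unpaired limma fit, and it did not when the left-out EOM library was kept.

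**Figure D1:**
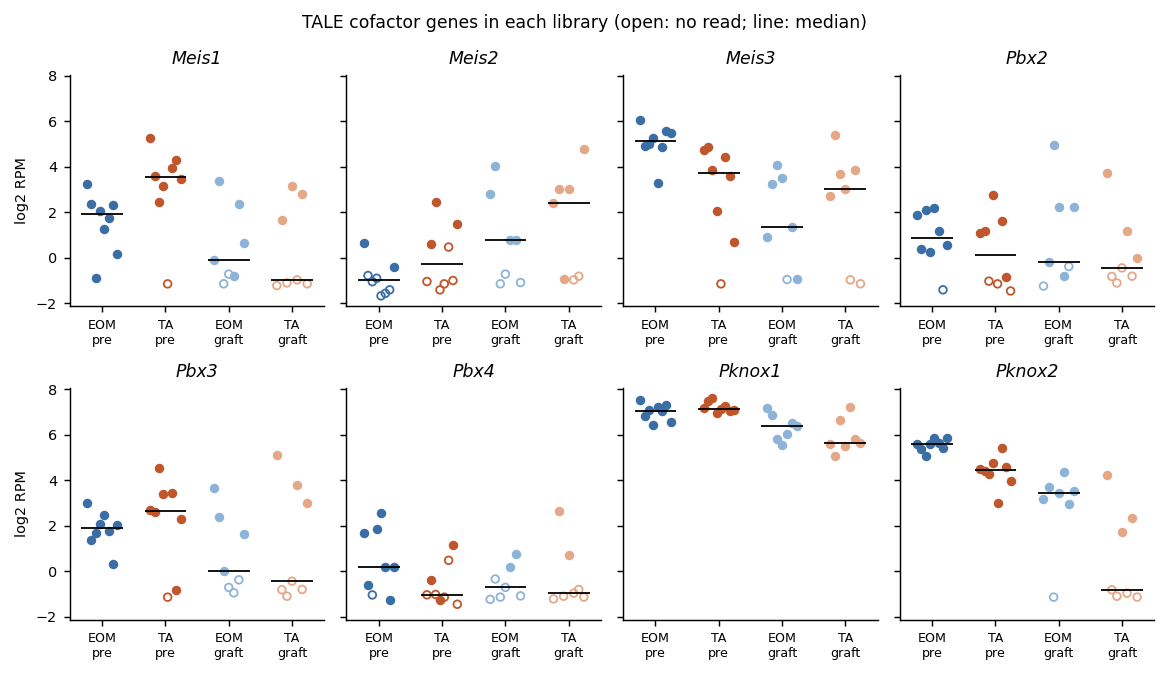
Log2 RPM of each of the 8 genes (vertical axis) in each of the 30 libraries used, by group; filled circles are libraries with a read, open circles libraries without a read, and the line is the median. Pknox1 was read in every library, Pknox2 in all 16 pre-graft libraries and in 3 of 7 TA grafts, and Meis2 mostly in grafts.

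Pknox1 encodes Prep1, the more widely expressed of the Pknox paralogs and an obligate partner of Pbx in the early embryo. It lies on chromosome 17 (GRCm38, chr17:31564749-31607680, plus strand, ENSMUSG00000006705). In EOM its lowest, median and highest pre-graft levels were 6.44, 7.05 and 7.52 log2 RPM, from 145 to 424 reads. In TA they were 6.94, 7.14 and 7.60 log2 RPM, from 98 to 354 reads. The muscles overlapped over most of their range, and the fitted log2 difference of TA against EOM was 0.22 ± 0.16 (SE; limma, adjusted p = 0.415). In the 7 mice with both libraries, TA was higher in 4 and lower in 3, by -0.36 to 1.16 on the log2 scale.

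Pknox2, encoding Prep2, lies on the minus strand of chromosome 9 (chr9:36889965-37147314, ENSMUSG00000035934). Its pre-graft levels were 5.09, 5.60 and 5.84 log2 RPM in EOM (lowest, median, highest; 63 to 164 reads) and 3.01, 4.45 and 5.44 log2 RPM in TA (16 to 64 reads). The groups overlapped through a single TA library, that of mouse 4 of Experiment 2. Pknox2 was lower in TA, by -1.18 ± 0.29 (SE) on the log2 scale (limma, adjusted p = 0.0135), and TA was lower than EOM in 7 of 7 mice, by -1.85 to -0.21. It was the only one of 7 members tested that passed in the unpaired limma fit of the libraries used, against 4.56% of the 13217 genes tested (3.31% lower and 1.26% higher in TA, 437 and 166 genes, against 191 lower and 247 higher with edgeR), so 1 of 7 is a count too small to set the family apart. With the donor mouse as a block 2 members passed, against 5.35% of genes, and with DESeq2 1 member, Meis1 rather than Pknox2. The difference was -0.90 in Experiment 1 (2 TA and 3 EOM libraries) and -1.33 in Experiment 2 (6 and 5 libraries). The call was lost under several alternatives. With the left-out EOM library of mouse 3 of Experiment 2 kept, the log2 difference was -0.69 (limma, adjusted p = 0.511), 0 members and 3.47% of genes were called, and that mouse was the 1 of 8 in which TA was higher (3.01 against 1.13 log2 RPM). The log2 difference was -0.94 (adjusted p = 0.0358) with each library centred on its median, -0.86 (adjusted p = 0.0563) with edgeR and -0.86 (adjusted p = 0.0197) with DESeq2 on recovered reads. Without the TA library of mouse 3 of Experiment 2, it was -0.99. These alternatives called 3.85% (centred), 3.31% (edgeR) and 4.4% (DESeq2) of the genes tested, and scaling without mitochondrial genes, under which Pknox2 was called, 3.89%. Markers of other cell types differed as well, in both directions. Of 5 fibro-adipogenic markers tested, 4 were lower in TA by value and 1, Dcn, was called (-5.62, adjusted p = 0.00592), with a list median of -2.44, while Ly6a of the same list was at 2.39 (adjusted p = 0.338). All 6 Schwann markers were lower by value, with a median of -1.87 and none called. Of 6 endothelial markers 5 were higher by value (median 2.70), with 1 called higher, Cdh5 (4.09, adjusted p = 0.0364), and 1 called lower, Tek (-1.45, adjusted p = 0.00322). Of 6 myofibre markers 5 were higher by value (median 1.90), with Acta1 (2.89) and Myh4 (2.63) called. The summed fibro-adipogenic level was 1205 to 3409 RPM in EOM and 1273 to 2264 RPM in TA, and the summed Schwann level 396 to 3663 and 172 to 1044 RPM. Their part in the Pknox2 level was not tested.

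Meis1 and Meis3 are paralogs of the Meis group. Meis1 is known for its roles in blood stem cells and in the cell cycle of heart muscle cells, and Meis3 for hindbrain patterning and survival of pancreatic beta cells. Meis1 lies on chromosome 11 (chr11:18880430-19018958, minus strand, ENSMUSG00000020160) and Meis3 on chromosome 7 (chr7:16175090-16186510, plus strand, ENSMUSG00000041420). Their differences between the muscles had opposite signs, and neither passed the threshold in the unpaired fit. The longest stretches that no annotated exon covers within the 250 bases before their RefSeq starts (GRCm38.p6, 5′ to 3′ on the gene's strand) are shown for comparison, Meis1 from chr11:19018986-19019219 (minus strand, 234 bases) and Meis3 from chr7:16175185-16175274 (plus strand, 90 bases), with CpG dinucleotides in capitals. The Meis1 stretch ends 16 bases before the RefSeq start. The Meis3 stretch ends 120 bases before it and lies inside the interval of the gene given above, between annotated exons.
Meis1: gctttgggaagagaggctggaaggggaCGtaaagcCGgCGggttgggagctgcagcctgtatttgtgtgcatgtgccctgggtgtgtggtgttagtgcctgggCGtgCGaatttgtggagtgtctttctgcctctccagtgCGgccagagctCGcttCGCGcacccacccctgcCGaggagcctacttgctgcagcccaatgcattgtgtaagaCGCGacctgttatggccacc
Meis3: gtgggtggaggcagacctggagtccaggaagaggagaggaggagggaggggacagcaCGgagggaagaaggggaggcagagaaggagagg
The Meis1 stretch held 12 CpG dinucleotides and 60.3% G or C, and the Meis3 stretch 1 CpG and 64.4% G or C. In the 250 bases before the start of the 5 members that the RefSeq promoter table covers (Meis1, Meis2, Meis3, Pbx2 and Pbx4), neither the Meis and Pknox core site TGACAG nor the Pbx and Hox site TGATNNAT occurred on either strand. These were held by 15.9% and 7.68% of the 32851 promoter windows of the same length, so their lack from 5 windows is a description only.

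Meis1 was read in all 8 EOM pre-graft libraries at low counts (1 to 18 reads), with lowest, median and highest levels of -0.89, 1.91 and 3.24 log2 RPM. In TA it had 0 to 71 reads and levels of -1.14, 3.54 and 5.26 log2 RPM. The TA library without a read was that of mouse 3 of Experiment 2, and the other 7 TA libraries had 10 or more reads and overlapped with EOM. The fitted log2 difference was 1.58 ± 0.78 (SE; limma, adjusted p = 0.214), with mean differences of 2.86 in Experiment 1 and 1.17 in Experiment 2. Within mice it was higher in TA in 7 of 7, by 0.39 to 3.28, and with the donor mouse as a block the log2 difference was 1.85 (limma, adjusted p = 0.0396), past the threshold, as were 5.35% of all genes in that fit. Mouse 3 of Experiment 2, whose EOM library was left out as an outlier, did not enter that fit. With that library kept, TA was lower in this mouse (-1.14 against 5.11 log2 RPM), the blocked difference over 8 mice was 0.83 (adjusted p = 0.660) and the unpaired difference 1.19 (adjusted p = 0.472), neither called, and the blocked fit called 2.95% of genes. Without the TA library of that mouse, among the libraries used, the unpaired log2 difference was 2.19, and the call was made there as well, while edgeR gave 1.99 (adjusted p = 0.104) and DESeq2 2.02 (adjusted p = 0.0278). Endothelial cells also transcribe Meis1. The TA library with most Meis1 reads (71, mouse 3 of Experiment 1) had 116 RPM of endothelial markers, below the TA median of 253 RPM, and the TA library without a Meis1 read had the lowest sum, 17.6 RPM. This sum includes Tek, read in all 8 pre-graft libraries of each muscle, with medians of 7.28 log2 RPM in EOM and 6.02 in TA. Tek was lower in TA while the other endothelial markers were higher by value, so the sum mixes opposite directions. The part of other cell types in the Meis1 level was not tested.

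By mean level per kilobase Meis3 was second among the members in both muscles, though in TA it was above Pknox2 in only 5 of 8 libraries. That order rests on exon lengths of 3.17 kb for Meis3 and 10.3 kb for Pknox2. Before division by length the mean of Pknox2 was higher, at 47.5 against 37.4 RPM in EOM and 22.6 against 13.8 RPM in TA. Meis3 had 28 to 127 reads in EOM, with lowest, median and highest levels of 3.29, 5.12 and 6.06 log2 RPM. TA had 0 to 50 reads and -1.14, 3.75 and 4.87 log2 RPM. Of the TA libraries, 1 lacked reads and another, of mouse 6 of Experiment 2, had 4 reads. The log2 difference of TA against EOM was -2.16 ± 0.72 (SE; limma, adjusted p = 0.0679), negative in 7 of 7 mice, by -4.81 to -0.04. It passed when any of 4 libraries was left out, the EOM library of mouse 2 of Experiment 2, the TA libraries of mice 3 and 4 of Experiment 1, or the TA library of mouse 4 of Experiment 2, with values of -1.58 to -2.44 over all 16 such fits. Over 14 alternatives in scaling, filter, test or libraries the difference was -2.71 to -1.27, and none was called. The mean difference was -0.51 in Experiment 1 and -2.64 in Experiment 2.

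**Figure D2:**
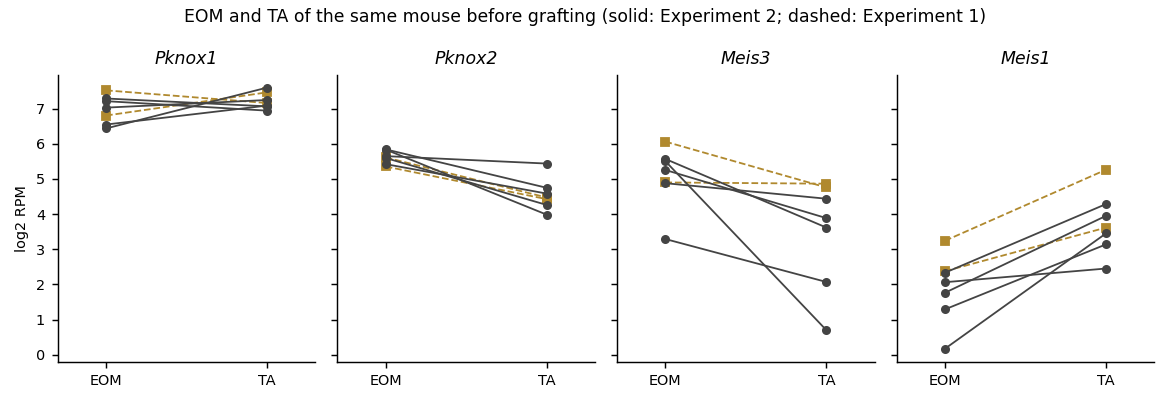
Log2 RPM of Pknox1, Pknox2, Meis3 and Meis1 (vertical axis) in EOM and TA of the same mouse before grafting, a line for each of 7 mice; solid lines are Experiment 2 and dashed lines Experiment 1. Pknox2 and Meis3 were lower and Meis1 was higher in TA in these 7 mice, while Pknox1 went either way, and mouse 3 of Experiment 2, whose EOM library was left out, is not drawn.

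A difference between 2 genes of the same library does not depend on how that library was scaled. These pairs were picked after the values were seen, so they are given without a test. Meis1 minus Meis3 was -5.88 to -2.0 log2 units in EOM (median -3.15) and -1.43 to 2.75 in TA (median 0.25), and the libraries used did not overlap. The TA library of mouse 3 of Experiment 2 had no read of either gene, so its difference of 0 holds no measurement; over the 7 TA libraries with a read of either, the range was the same and the median 0.51. Pknox1 minus Pknox2 was 0.71 to 1.98 in EOM (median 1.41) and 1.81 to 4.12 in TA (median 2.86), with an overlap at the edges. In the left-out EOM library of mouse 3 of Experiment 2 these differences were 0.78 and 5.33, the first within the range of TA and the second above it, so the separation of Meis1 minus Meis3 did not hold with that library. In the grafts the Meis difference spread over -5.24 to 1.58 in EOM and -4.80 to 0.14 in TA, where 2 of 7 libraries had no read of either gene, and that separation was not seen. The Pknox difference was 1.66 to 6.97 in EOM grafts and 1.39 to 8.19 in TA grafts, with the highest values in libraries without a Pknox2 read.

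**Figure D3:**
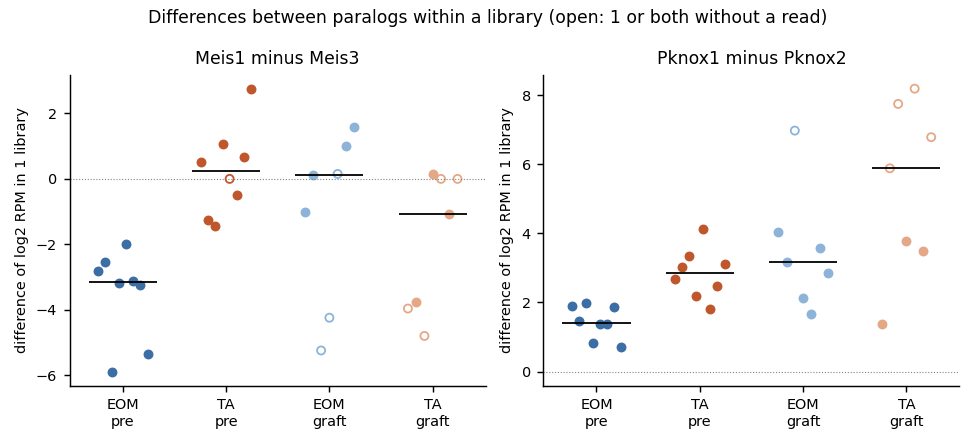
Difference of log2 RPM between Meis1 and Meis3 (left) and between Pknox1 and Pknox2 (right) within each library, by group; the line is the median and open circles are libraries in which 1 or both genes had no read. Before grafting, Meis1 minus Meis3 lay at or below -2.0 in EOM and at or above -1.43 in TA.

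The remaining members were read at low counts before grafting. Pbx3, a Pbx paralog with roles in hindbrain and limb development, had 3 to 16 reads in EOM (0.33, 1.91 and 2.98 log2 RPM, lowest, median and highest) and 0 to 42 in TA (-1.14, 2.66 and 4.52 log2 RPM). Pbx2, a broadly transcribed paralog, had 0 to 13 reads in EOM and 0 to 16 in TA. Pbx4, best known from the testis, had a read in 7 of 8 EOM libraries (0 to 17 reads) and in 3 of 8 TA libraries (0 to 4 reads). Meis2, which acts in heart, limb and neural crest development, had a read in 2 of 8 EOM libraries (at most 3 reads) and in 3 of 8 TA libraries (at most 10 reads), and did not pass the filter on low values. The groups overlapped for each of these 4 genes. The fitted log2 differences of TA against EOM were 0.28 ± 0.76 for Pbx3, -0.62 ± 0.72 for Pbx2 and -1.02 ± 0.65 for Pbx4 (SE; limma, adjusted p = 0.850, 0.620 and 0.345).

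Per kilobase of exon, which allows a comparison between genes, Pknox1 led with 18.8 ± 4.71 RPM per kb in EOM and 21.6 ± 3.43 in TA (mean ± SD, n = 8 each). Meis3 followed with 11.8 ± 5.25 in EOM and 4.36 ± 3.59 in TA, then Pknox2 with 4.59 ± 0.77 and 2.19 ± 0.98. Every other member averaged at most 1.32 RPM per kb in either muscle. The fourth place was held by Pbx4 in EOM (0.90 ± 0.92) and by Meis1 in TA (1.32 ± 1.10), and Meis2 was last in both (0.02 ± 0.05 and 0.10 ± 0.17). Neighbours in that order were compared by an exact two-sided permutation test over libraries (sign flips, 28 neighbouring pairs over 4 groups, smallest p 0.0078 with 8 libraries). No pair passed after adjustment over the 28 pairs, since the smallest adjusted p was 0.0729. Before adjustment the exact p was 0.0078 for Pknox2 over Pbx4 and for Meis1 over Meis2 in EOM, and for Pknox1 over Meis3 in TA, in 8 of 8 libraries each. Pbx4, Pbx3, Pbx2 and Meis1 were not told apart as neighbours in EOM (exact p = 0.469, 0.938 and 0.250), nor were Meis1 and Pbx3 in TA (exact p = 0.953). Meis3 was above Pknox2 in 7 of 8 EOM libraries (exact p = 0.0156) and in 5 of 8 TA libraries (exact p = 0.109), so its second place in TA was not told apart.

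**Figure D4:**
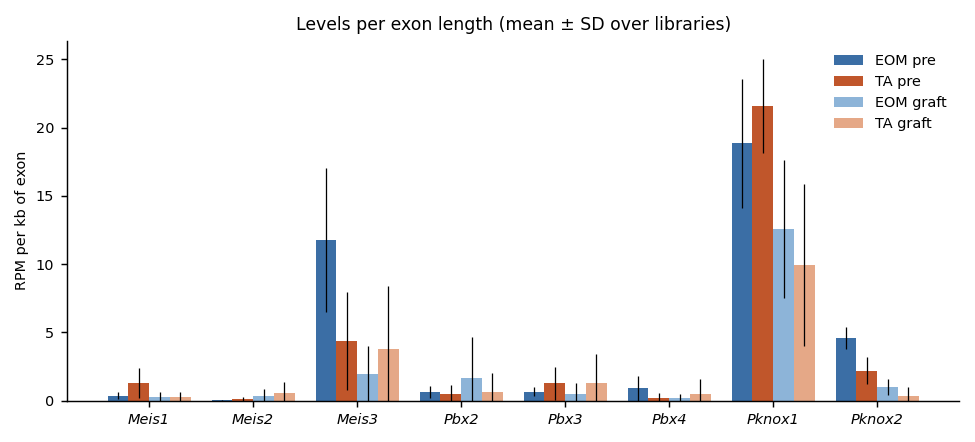
Level of each gene in RPM per kilobase of exon (vertical axis, mean ± SD over libraries) in the 4 groups, 8 libraries for each pre-graft bar and 7 for each graft bar. Pknox1 was the highest in each group, and the bar of Meis3 was higher in EOM than in TA before grafting.

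Other TALE genes were compared beside the members. Of the 9 (Tgif1, Tgif2, Mkx and Irx1 to Irx6), 5 were tested before grafting, 2 were lower in TA and 3 did not pass. The list's median was -1.61 on the log2 scale against -0.30 for all genes tested. The Iroquois genes Irx3 and Irx5, homeobox regulators of limb and heart patterning, made up both calls. Irx5 stood at 4.53 to 5.46 log2 RPM in EOM and at -1.45 to 2.59 in TA without overlap, a log2 difference of -4.56 ± 0.60 (SE; limma, adjusted p = 2.23e-05). Irx3 stood at 3.90 to 4.50 in EOM and at 0.48 to 3.80 in TA, also without overlap, a log2 difference of -1.75 ± 0.46 (adjusted p = 0.0195). Groups did not overlap for 2.28% of all genes tested and for none of the members. Of 13 partners of TALE proteins in the table, 11 were tested and 2 passed, both higher in TA. They were Myod1, the myogenic factor, by 2.02 ± 0.25, and Pax3, a myogenic regulator of limb precursors, by 4.98 ± 0.69 (limma, adjusted p = 9.83e-06 and 3.95e-05). The Pbx-interacting protein Pbxip1 differed by -0.68 ± 0.17 (adjusted p = 0.0176), short of the size threshold. Of the 39 Hox genes 13 were tested and all were higher in TA, where 4.56% of all genes were called in either direction. With almost no Hox transcripts in EOM, these 13 reached the filter through TA, so their shared direction follows from the filter and is a description only. Irx5 likewise reached the filter through EOM (above log2 RPM 1 in 8 EOM and 3 TA libraries). Pax3 reached it through TA (8 TA libraries and 1 EOM library). The filter thus bears on the direction of these 2 calls as well, and that direction is a description only.

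Genes that went with the 3 most abundant members over the 16 pre-graft libraries were ranked by Pearson's r after each library was centred on its median, among 13216 genes. For Pknox2 these were Pkp2 (r = 0.91), Vcan (0.91) and Bgn (0.89), for Meis3 Heph (0.94), Ppp1r3f (0.93) and Ccdc22 (0.93), and for Pknox1 Qpctl (0.83), Prkd1 (0.82) and 2610507B11Rik (0.81). The 3 genes of Pknox2 and the 3 of Meis3 all had higher mean levels in EOM than in TA, so that the points share the muscle as well as the library. Among the members, Meis3 and Pknox2 had the highest r, 0.72, and Pknox1 and Pknox2 the lowest, -0.54.

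After grafting, under the authors' scaling, most genes moved down, with a median log2 change of -1.09 in TA and -1.48 in EOM. The mitochondrial share of reads had a median of 10.7% before and 25.3% after grafting in TA, and of 3.56% and 33.04% in EOM. With scaling without mitochondrial genes the median change was -0.50 in TA and -0.60 in EOM. Changes of the members are therefore given as fitted and relative to that shift. In bulk libraries fewer cells of a type and less RNA per cell cannot be told apart. In TA, 3 of 7 members tested passed, all lower, against 34.7% of the 13076 genes tested (30.9% lower and 3.79% higher), and no member was without overlap, against 5.19% of genes. In EOM, 2 of 6 members tested passed, both lower, against 59.3% of 13094 genes (55.8% lower and 3.51% higher). The balance of directions over all genes turned with the scaling. In TA grafts 496 genes were higher and 4046 lower on the authors' scale, against 1003 and 743 with each library centred on its median and 782 and 402 with edgeR. In EOM grafts these were 460 and 7302, against 871 and 634 with centring and 907 and 380 with edgeR. Both counts of members lie near or under the background, and the members' median changes, -0.87 in TA and -1.03 in EOM, were less negative than those of all genes.

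Pknox2 was called lower in the grafts of both muscles. In EOM grafts its lowest, median and highest levels were -1.14, 3.44 and 4.37 log2 RPM (0 to 36 reads), below every EOM pre-graft library used, and 1 of 7 grafts had no read. It was the only member whose groups did not overlap, as was the case for 11.3% of all genes tested in that comparison. With the left-out EOM library kept, at 1.13 log2 RPM, its groups overlapped. The log2 change was -2.69 ± 0.64 (SE; limma, adjusted p = 0.00248), or -1.21 relative to the shift, and negative in 6 of 6 mice. With the left-out EOM library kept it was -2.20 (adjusted p = 0.0202, with 53.5% of genes called), and with the donor mouse as a block as well -2.12 (adjusted p = 0.0528, with 43% called), no longer past the threshold. In TA grafts 4 of 7 libraries had no read, and the levels were -1.14, -0.81 and 4.22 log2 RPM, the highest from the single Experiment 1 graft with 39 reads. The log2 change was -3.76 ± 0.86 (adjusted p = 0.00364), or -2.67 relative to the shift, and negative in 7 of 7 mice. Pknox2 reached the filter in TA through the pre-graft libraries (above log2 RPM 1 in 8 of 8, against 3 of 7 grafts). The filter thus bears on the direction of this change. The mean change was -0.23 in Experiment 1, with 1 graft library, and -4.33 in Experiment 2. In TA it also passed with each library centred on its median (-2.86, adjusted p = 0.0309) but not with edgeR on recovered reads (-1.71, adjusted p = 0.327). In EOM it passed neither with centring (-1.44, adjusted p = 0.159) nor with edgeR (-0.87, adjusted p = 0.404). The EOM call was also lost with DESeq2 (13.3% of genes called) and with scaling without mitochondrial genes (17.6%). With centring, 13.4% of all genes were called in TA grafts and 11.5% in EOM grafts, and with edgeR 9.05% and 9.83%.

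Pknox1 had the highest mean level per kilobase in the grafts of both muscles and was read in all 14 (53 to 309 reads). Per kilobase it was above Meis3, the next member, in 7 of 7 EOM grafts and in 6 of 7 TA grafts. Its levels were 5.57, 6.39 and 7.19 log2 RPM in EOM grafts and 5.06, 5.64 and 7.22 in TA grafts. It was called lower in TA, by -1.28 ± 0.36 (SE; limma, adjusted p = 0.0111), and lower in 7 of 7 mice, but by only -0.20 relative to the shift. The call was lost in 5 of the 11 alternatives that left out no single library, with -0.69 (adjusted p = 0.138) when mitochondrial genes were left out of the totals, -0.39 (adjusted p = 0.420) with centring, -0.28 (adjusted p = 0.632) with edgeR, -0.17 (adjusted p = 0.810) with DESeq2 and -1.20 (adjusted p = 0.0610) in Experiment 2 alone. In EOM the log2 change was -0.64 ± 0.30 (adjusted p = 0.0697), or 0.83 relative to the shift, and its sign turned to 0.61 with each library centred on its median. On the authors' scale Pknox1 stayed close to or above the median change of all genes.

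Meis3 was called lower in EOM grafts. It had 0 to 34 reads there, at -0.95, 1.36 and 4.10 log2 RPM, a log2 change of -3.44 ± 0.78 (SE; limma, adjusted p = 0.00185), or -1.97 relative to the shift, and lower in 5 of 6 mice. With each library centred on its median the change was -2.19 (adjusted p = 0.0622), with edgeR -1.52 (adjusted p = 0.199) and with DESeq2 -1.41 (adjusted p = 0.135), and it was not called in these 3. In TA grafts Meis3 had 0 to 67 reads (-1.14, 3.04 and 5.40 log2 RPM) and a log2 change of -0.52 ± 1.06 (adjusted p = 0.703). The difference between these changes, EOM minus TA, was -2.92 ± 1.36 (adjusted p = 0.673) and did not pass. Meis1 was called lower in TA grafts, with a log2 change of -2.67 ± 0.97 (adjusted p = 0.0361), or -1.58 relative to the shift. Like Pknox2 there, it reached the filter through the pre-graft libraries (above log2 RPM 1 in 7 of 8, against 3 of 7 grafts). It had no read in 4 of 7 TA grafts and 5 to 11 reads in the other 3, and the mean change was -5.66 in Experiment 1 and -1.95 in Experiment 2. This call held in 6 of 15 fits that left out a library (-3.28 to -2.36, adjusted p = 0.0102 to 0.0752). It was lost without any of the 4 TA grafts that had no read, without either TA pre-graft library of Experiment 1, or without that of mouse 4, 5 or 6 of Experiment 2. With the donor mouse as a block the change was -2.60 (adjusted p = 0.0673), not called. Of 11 alternatives in scaling, filter, test or libraries 7 lost the call, among them centring (-1.77, adjusted p = 0.266), edgeR (-0.74, adjusted p = 0.778) and DESeq2 (-0.44, adjusted p = 0.875). In EOM grafts Meis1 had 0 to 12 reads and a log2 change of -1.02 ± 0.79 (adjusted p = 0.258).

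**Figure D5:**
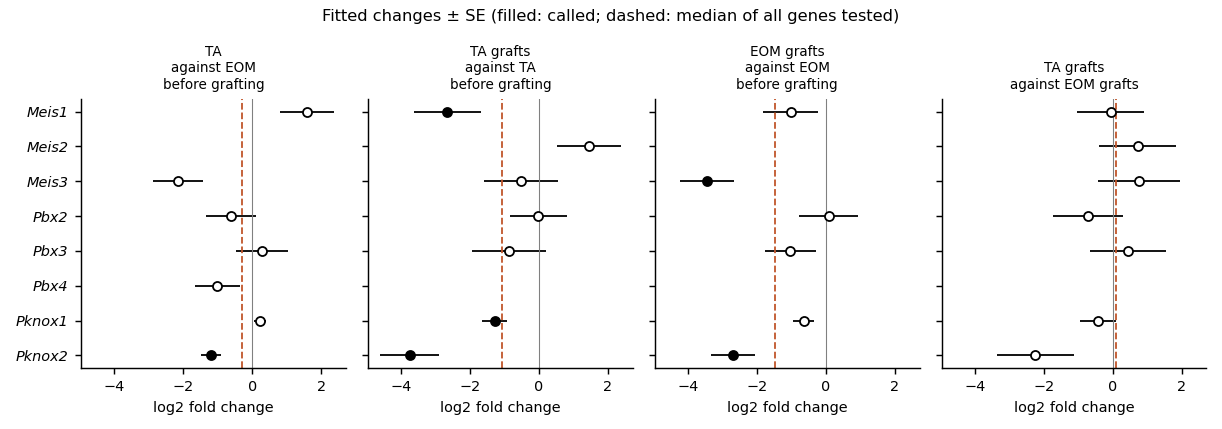
Fitted log2 fold change ± SE of each member tested (horizontal axis) in 4 comparisons; filled points passed adjusted p under 0.05 and a log2 change over 1, and the dashed line is the median of all genes tested. In the grafts the dashed line lies at -1.09 in TA and -1.48 in EOM, and only Pknox2, Meis1 and Meis3 lie more than 1 below it.

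Meis2 had its highest levels in grafts. It had a read in 5 of 7 TA grafts (0 to 55 reads, -0.97, 2.40 and 4.80 log2 RPM) and in 4 of 7 EOM grafts (0 to 19 reads, -1.14, 0.77 and 4.06 log2 RPM). The groups overlapped with the pre-graft libraries, which reached 0.66 log2 RPM in EOM and 2.45 in TA, the latter above the median of the TA grafts. The log2 change in TA was 1.45 ± 0.92 (SE; limma, adjusted p = 0.204), or 2.53 relative to the shift, and it was higher in each of the 5 mice with a read in either library, by 1 read against 0 in mouse 2 of Experiment 2. In TA it reached the filter through the grafts (above log2 RPM 1 in 4 of 7, against 2 of 8 pre-graft libraries). In EOM, where Meis2 did not pass the filter, it was higher in 4 of the 5 mice with a read in either library. Meis2 is also transcribed by endothelial and stromal cells. In TA grafts, 5 of 6 endothelial markers and 4 of 6 fibro-adipogenic markers were called higher, among the latter Dcn by 6.56, Col1a1 by 4.74 and Lum by 4.42 on the log2 scale, while the fibro-adipogenic marker Dpt was called lower (-2.66). In EOM grafts 5 of 6 endothelial markers and 1 of 6 fibro-adipogenic markers were called higher, and Dpt was called lower (-2.27). The TA graft with most Meis2 reads (55, mouse 6 of Experiment 2) had 3525 RPM of fibro-adipogenic markers, the highest of the TA grafts, and 2380 RPM of endothelial markers. The EOM graft with most Meis2 reads (19, mouse 1 of Experiment 2) likewise had the highest sums of the EOM grafts, 7328 and 1948 RPM. That with the next most (15, mouse 4 of Experiment 1) had 1662 RPM of fibro-adipogenic markers and the lowest endothelial sum of the EOM grafts, 189 RPM. The TA graft of mouse 3 of Experiment 2, with 10 Meis2 reads, had the lowest sums of the TA grafts, 687 and 541 RPM, and that of mouse 4, without a read, had 970 and 1219 RPM. Their part in the Meis2 level was not tested.

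Pbx2 and Pbx3 varied widely among grafts of the same muscle. Pbx3 had no read in 4 of 7 TA grafts but 73, 24 and 16 in the others, and in EOM grafts 0 to 27 reads. Pbx2 had 61 reads in a single EOM graft, that of mouse 2 of Experiment 2, and at most 9 in the other 6, and in TA grafts 0 to 28 reads. Pbx4 had a read in 2 of 7 grafts of each muscle, with at most 10 reads in TA and at most 2 in EOM. Fitted log2 changes of Pbx2 and Pbx3 lay between -1.03 and 0.08 in both muscles, with SEs of 0.74 to 1.07, and none was called. Graft libraries came from a median of 35 (EOM) and 26 (TA) cells against 500 before grafting, and the part of cell number in this spread was not tested.

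Between TA and EOM grafts, none of the 7 members tested was called and none had an unadjusted p under 0.05 (limma, adjusted p = 0.9999 for each; 0 of 12377 genes were called, 0% of those tested, with 452 at an unadjusted p under 0.05). edgeR and DESeq2 called 0 members as well, against 0% and 0.0242% of genes, and the fit with the donor mouse as a block 0 members against 0.00808%. No member was without overlap between grafts, against 0.0162% of genes. The largest fitted log2 difference was that of Pknox2, -2.25 ± 1.12 (SE), with TA lower in each of the 5 mice with a read in either graft, all of Experiment 2. The single grafts of Experiment 1, from different mice, went the other way (4.22 log2 RPM in TA and 3.16 in EOM). The sign of the fitted difference was that of the pre-graft difference, but a p above the threshold in 7 against 7 libraries does not show that the grafts were alike. The graft change of EOM minus that of TA was not called for any of the 8 members, against 0.208% of 14428 genes tested (0.0554% higher and 0.152% lower). Of the 8, only Meis3 had an unadjusted p under 0.05 (limma, p = 0.0384, adjusted p = 0.673), and 0 members were called by edgeR (0.0139% of genes), by DESeq2 (0.721%) and with the donor mouse as a block (0.0347%). With the left-out EOM library kept, 0 members were called without the block (0.144% of genes) and with it (0.0275%). For Pknox2 this difference was 1.07 ± 1.05, for Meis1 1.65 ± 1.27 and for Pknox1 0.64 ± 0.46 (SE). These comparisons share libraries, since each graft change uses the pre-graft values above.

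Other TALE genes were compared in the grafts as well. In EOM 5 of 6 tested were called lower (Irx5 by -5.07, Irx3 by -4.30, Mkx by -3.15, Tgif2 by -1.56 and Tgif1 by -1.55), and in TA 2 of 4 (Irx3 by -2.51 and Tgif1 by -1.57), among comparisons where 55.8% and 30.9% of all genes were lower. Irx5, read in all 8 EOM pre-graft libraries, had reads in 2 of 7 EOM grafts. Irx5, Irx3 and Mkx in EOM, and Irx3 in TA, reached the filter through the pre-graft libraries, so the filter bears on their direction. Relative to the shift, Tgif1 and Tgif2, repressors of the TALE class, changed by -0.07 and -0.09 in EOM. Among the partners, 6 of 9 tested were called lower in EOM grafts and 5 of 11 in TA grafts, with list medians of -1.48 and -1.42 against -1.48 and -1.09 for all genes.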

How the data were processed

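RNA of sorted MuSC pools was sequenced after separation from DNA, and the 40 bisulfite libraries made from the DNA were not analysed here. Per the submitters' processing notes, reads were trimmed with Trim Galore 0.4.4 and aligned to GRCm38 with HISAT2 2.1.0. The authors deposited log2 RPM per gene, made in SeqMonk. They also gave, in deposited quality tables, total read counts and percentages of reads in genes, exons and mitochondrial genes for each library. Of 40 RNA libraries the 30 that the authors passed were used, and the verdict on 1 library differed from the thresholds stated (500000 reads, 70% in genes, 65% in exons). After 66 duplicated symbols were removed, 25899 genes were kept. Values stood at whole reads (100% within a tolerance of 0.02), so reads were recovered, in smaller numbers than the total read counts given.

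Each comparison was fitted across all genes above log2 RPM of 1 in at least 4 libraries with limma 3.58.1 in R 4.3.3, without a block, on the libraries of its groups. A call needed a Benjamini-Hochberg adjusted p under 0.05 and a log2 change over 1. The fits were tested on simulated data, the outcome of which is not given here. Alternatives were edgeR 4.0.16 and DESeq2 1.42.0 on recovered reads, other scalings, filters, covariates and sets of libraries, and leaving out each library. EOM and TA libraries, before and after grafting, came from the same donor mouse, which pairs them by animal. Between the EOM and TA pre-graft libraries of a mouse, the correlation of deviations from the group means over genes was -0.08 to 0.18 in 7 mice. It was not measured for pairs with a graft. Each library is a separate mouse within its group, so p-values measure the spread between mice. Levels between genes were divided by the length of the union of exons. All 8 members were described, and of the other lists the genes called were named, with the 3 genes most like each of the 3 most abundant members. The members and lists were chosen with earlier results of these data known. Floors and read counts cover counting error only.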

Additional observations from a re-analysis of the deposited data

Results flagged for a closer look

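Of 32 sets of libraries (8 genes in 4 groups), 3 held a library far from the others, and chance alone flags about 1 in 20. Meis1 in the TA pre-graft library of mouse 3 of Experiment 2 stood at -1.14 log2 RPM, with 0 reads, and the nearest of the other 7 at 2.45. That library also lacked reads of Meis2, Meis3, Pbx2, Pbx3 and Pbx4. Meis3 in the EOM pre-graft library of mouse 2 of Experiment 2 stood at 3.29 log2 RPM, with 28 reads, and the nearest at 4.88. The highest macrophage and Schwann marker sums of the EOM pre-graft group were 1485 and 3663 RPM, both in that library. Pknox2 in the EOM graft of mouse 2 of Experiment 2 stood at -1.14 log2 RPM, with 0 reads, and the nearest of the other 6 at 2.94. That graft had the lowest number of detected genes of the 30 libraries, 9758, and the most Pbx2 reads, 61.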

How the results depend on the processing

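The number of members called depended on the scaling and the tool. For TA against EOM before grafting, where Pknox2 was called, the count was 0 with each library centred on its median, with edgeR, in Experiment 2 alone (3.11% of all genes called), with all libraries (1.35%), with all but that of fewest reads on genes (3.52%, an alternative chosen after seeing the data), with 1 fit over 4 groups (1.56%), and, also chosen after seeing the data, with the libraries that meet the stated thresholds (which keeps the EOM library of mouse 3 of Experiment 2), and it was 1 to 2 when a library was left out. With DESeq2 it was 1, Meis1 in place of Pknox2. In Experiment 2 alone the Pknox2 difference was -1.33, and 1 fit over 4 groups left it at -1.18, so these 2 calls were lost without a smaller difference. For TA grafts the count of 3 became 1 with scaling without mitochondrial genes (17.9% of all genes called against 34.7%), with centring and in Experiment 2 alone (16.1%), 0 with edgeR and DESeq2, and 2 to 3 when a library was left out. For EOM grafts the count of 2 became 1 with scaling without mitochondrial genes (17.6% against 59.3%), 0 with centring, edgeR and DESeq2, and stayed at 2 when a library was left out. Over all genes, the 4542 calls in TA grafts became 1184 with edgeR and 1696 with DESeq2, the 7762 in EOM grafts 1287 and 1742, and the 30 of the difference between the graft changes 2 and 104. Pknox2 kept a negative sign in these alternatives in all 4 comparisons between groups, and the cause of the lost calls was not tested.

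With the donor mouse as replicate block, 2 members were called for TA against EOM before grafting, Meis1 joining Pknox2 (-1.06), and 2 of 7 in TA grafts, where Meis1 was lost and 28.4% of all genes were called; the block changed no other member's call. With the block and the libraries that meet the stated thresholds, 0 members were called for TA against EOM before grafting and 1 in EOM grafts, where Pknox2 was -2.12 (adjusted p = 0.0528), and Pbx3 before grafting was -0.055. It turned the sign of Pbx2 in TA grafts (0.11), of Meis1 between grafts (0.11) and of Pbx3 in the difference between graft changes (0.55). Over all genes it gave 4783 calls in EOM grafts, 1 between grafts and 5 for the difference between graft changes.

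Other signs turned as follows, none of them a call. For TA against EOM before grafting, Pbx2 was 0.30 with all libraries but that of fewest reads, Pbx3 and Pknox1 were -0.42 and -0.18 with all libraries, and Pbx3 was -0.0016 with the libraries that meet the stated thresholds. In TA grafts Meis3 was 0.070 without mitochondrial genes, 0.37 with centring, 0.82 with edgeR, 0.99 with DESeq2 and 0.056 in Experiment 2 alone. Pbx2 was 0.57, 0.87, 0.82 and 0.88 in the first 4 of these and 0.21 with experiment as covariate, and Pbx3 was 0.025 with centring, 0.50 with edgeR and 0.56 with DESeq2. In EOM grafts, with centring, edgeR and DESeq2 in turn, Meis1 was 0.23, 0.46 and 0.53, Pbx3 0.22, 0.25 and 0.33, and Pknox1 0.61, 0.51 and 0.60, with 0.23 for Pknox1 without mitochondrial genes, and Pbx2 was -0.55 with all libraries. Between grafts Meis1 was 0.94 with edgeR, 1.06 with DESeq2 and 0.11 in Experiment 2 alone, and Meis3 and Pbx3 were -0.28 and -0.20 with all libraries. In the difference between graft changes Meis2 was -0.16 with log2 of RPM plus 1 and -0.84 with all libraries. Pbx3 there was 0.13 without mitochondrial genes, 0.25 with centring, 0.045 with experiment as covariate and 0.64 with all libraries but that of fewest reads.

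Leaving out a library turned the sign of Pbx3 for TA against EOM before grafting (-0.065 to 0.74), of Meis3 (-1.10 to 0.065) and Pbx2 (-0.61 to 0.33) in TA grafts, of Pbx2 in EOM grafts (-0.58 to 0.45), of Meis1 (-0.52 to 0.41) and Pbx3 (-0.21 to 0.91) between grafts, and of Meis2 (-0.32 to 0.77), Pbx2 (-0.56 to 0.68) and Pbx3 (-0.64 to 0.49) in the difference between graft changes. In these libraries 3 reads stood for 1.05 to 4.64 RPM.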
